A study of Homo sapiens with 6 samples.

Results

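Divergent lncRNAs are long noncoding RNAs that start beside a protein-coding gene and are transcribed away from it, and their names join the name of that gene to the ending -DT. They were taken as every gene of type lncRNA in GENCODE release 44 whose name ends in -DT, which gave 589 of the 62228 genes with values. The coding partner was the protein-coding gene named before the ending. It was found for 587 of them, covering 586 distinct partners, and 2 members had no single coding partner. By the Ensembl canonical transcripts, 498 members started within the 1000 bases upstream of their partner's start, 55 started farther upstream and 33 started past it, with a median gap of 184 bases. One member lay on the same strand as its partner.

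The study asked how loss of PCBP1, an RNA-binding protein that prefers runs of C and also escorts iron, changes the transcriptome of K562 cells, an established erythroleukemia line. Cells of both groups received lentivirus made from pLKO.1 with polybrene at 8 µg/mL and were then selected in puromycin at 3 µg/mL for 4 days. The virus carried a hairpin against luciferase in shCtrl and a hairpin against PCBP1 in shPCBP1, and poly-A RNA of 3 libraries per group was sequenced in paired ends. Each target was represented by 1 hairpin, so effects of the hairpin sequence and of PCBP1 loss cannot be told apart. The labels do not say whether the libraries came from separate cultures, so the p-values measure the spread between these libraries, which may be technical.

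Most active promoters of mammalian cells fire in both directions. The RNA made away from the coding gene usually meets early polyadenylation signals and few U1 snRNP sites, so it tends to be cut short and removed by the nuclear exosome. A divergent lncRNA is one of these transcripts that is stable enough to be annotated, and it shares a nucleosome-depleted start region with the coding gene while having its own RNA fate. Only polyadenylated RNA was captured here, so unadenylated upstream transcripts were not seen.

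Total estimated counts were between 83033656 and 140522444 in the shCtrl libraries and between 67066747 and 85121124 in the shPCBP1 libraries, so depth moved with the group. Its part in the results was not tested beyond leaving libraries out. In shCtrl the normalized count of PCBP1 was 40567, 38411 and 37800, and in shPCBP1 it was 6624, 7276 and 7221. It was left at 18.1% of the shCtrl mean, with a log2 fold change of -2.47 (SE 0.04). All 7 markers of K562 cells were present, among them the erythroid factor GATA1 at 203 to 217 TPM (a level scaled by transcript length and library size) and embryonic globin HBE1 at 7833 to 10017 TPM. Of 6 markers of other cell types, 5 stayed under 0.5 TPM in every library, including CD3E, MS4A1, ALB and KRT5 at or near 0. Their summed level was 5.84 to 6.95 TPM in shCtrl and 3.91 to 5.17 TPM in shPCBP1, carried by COL1A1, and the part of this in the results was not tested.

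The start regions of 6 pairs are printed as examples, chosen after their values were seen. They belong to 3 rises, 2 falls whose partner did not pass and 1 pair that changed in opposite directions. Each runs on GRCh38 from the start base of the lncRNA to the start base of the partner, read 5′ to 3′ on the partner's strand. The ZNF132 interval is chr19:58440153-58440448 on the minus strand, the RNASEH1 interval is chr2:3558333-3558439 on the minus strand, and the HK2 interval is chr2:74833987-74834127 on the plus strand. The ITPR1 interval is chr3:4493201-4493348, the DNAJC3 interval is chr13:95676920-95677139 and the NIPBL interval is chr5:36876657-36876769, all on the plus strand. Capitals mark matches on either strand to the GC box GGGCGG, the CCAAT box CCAAT, the ETS site CCGGAAG and the TATA box TATAAA.
ZNF132-DT: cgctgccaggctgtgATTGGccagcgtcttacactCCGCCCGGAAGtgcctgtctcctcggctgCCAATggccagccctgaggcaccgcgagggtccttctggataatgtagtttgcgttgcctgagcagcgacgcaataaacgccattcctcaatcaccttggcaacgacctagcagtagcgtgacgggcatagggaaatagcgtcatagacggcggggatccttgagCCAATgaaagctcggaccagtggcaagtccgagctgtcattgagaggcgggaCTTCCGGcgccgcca
RNASEH1-DT: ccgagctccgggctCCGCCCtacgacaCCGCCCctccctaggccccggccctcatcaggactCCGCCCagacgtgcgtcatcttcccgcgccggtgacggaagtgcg
HK2-DT: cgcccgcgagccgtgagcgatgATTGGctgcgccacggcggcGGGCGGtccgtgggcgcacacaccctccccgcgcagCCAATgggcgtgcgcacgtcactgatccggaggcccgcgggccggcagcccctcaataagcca
ITPR1-DT: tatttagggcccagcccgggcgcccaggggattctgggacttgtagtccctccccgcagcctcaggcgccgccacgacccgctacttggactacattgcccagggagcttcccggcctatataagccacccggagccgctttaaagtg
DNAJC3-DT: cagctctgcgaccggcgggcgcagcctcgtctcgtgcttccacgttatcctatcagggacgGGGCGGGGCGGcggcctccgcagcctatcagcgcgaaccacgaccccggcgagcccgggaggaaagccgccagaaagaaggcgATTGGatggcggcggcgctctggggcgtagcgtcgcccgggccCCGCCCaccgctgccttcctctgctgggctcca
NIPBL-DT: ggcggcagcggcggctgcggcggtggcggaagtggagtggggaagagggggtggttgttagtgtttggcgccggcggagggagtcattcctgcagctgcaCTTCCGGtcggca

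These intervals are 107 to 296 bases long, and each holds both transcription starts at its ends. The ZNF132 interval held 1 GC box, 3 CCAAT boxes and 2 ETS sites, with the GC box and the first ETS site overlapping. The RNASEH1 interval held 3 GC boxes, and the DNAJC3 interval held 3 GC boxes, the first 2 of which share a base, and 1 CCAAT box. The HK2 interval held 1 GC box and 2 CCAAT boxes, the NIPBL interval held 1 ETS site, and the ITPR1 interval held no match. In RefSeq promoter windows of 250 bases before to 50 after the start, also on GRCh38, 441 divergent lncRNAs were matched by name. A GC box stood in 73.7% of them and in 44.6% of all 27305 promoters. A CCAAT box stood in 30.4% against 35.7%, an ETS site in 18.4% against 10.7% and a TATA box in 4.08% against 12% of all promoters. Among the members described below as changed, 13 of 25 matched promoters of lower ones and 5 of 6 of higher ones held a GC box. The share was 73.3% over 187 matched members tested for change. A CCAAT box stood in 13 of the 25 and 3 of the 6, beside 34.8% of the 187. An ETS site stood in 2 of the 25 and 1 of the 6, beside 26.7%. A TATA box stood in 2 of the 25 and 0 of the 6, beside 4.81%. These differences were not tested. Such a match is a run of letters and no evidence of a bound factor.

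Divergent lncRNAs were mostly low in level. In all 6 libraries 83 of the 589 were at 0, and 144 fell below the summed count of 10 that a gene needed to enter the test. Of the 445 in the fit, 240 received an adjusted p, since DESeq2 gives none to genes of low mean count, and these 240 are called tested. Their median level was 2.07 TPM, with 25 above 10 TPM and a maximum of 34.8 TPM. Across the pairs tested, the lncRNA stood at a median of 8.90% of the TPM of its partner, and it stood above the partner in 33 pairs.

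The tested divergent lncRNAs leaned lower in shPCBP1, mostly by small amounts. The median log2 fold change was -0.14 and 171 of 240 were below 0, where the median over all 17092 genes tested was 0.00. At an adjusted p under 0.05 by the DESeq2 Wald test, 6 rose and 31 fell, 37 in all. That is 15.4% of the members, beside 31.2% of all genes tested, with 17.7% of all genes higher and 13.5% lower. The median fall among the 31 was -0.59 on the log2 scale, and the changes that passed ran from -1.43 to 0.93. The groups of libraries did not overlap for 65 of the 240, or 27.1%, beside 44.2% of all genes tested. With edgeR's quasi-likelihood test 4 rose and 21 fell.

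When a log2 fold change above 1 or below -1 and a mean normalized count over 10 were also required, 3 divergent lncRNAs were called, beside 1.37% of all genes tested. All 3 were lower, beside 0.983% of all genes called lower and 0.386% called higher. No member was called higher by DESeq2 or by edgeR, and 8 higher members had an unadjusted p under 0.05. All 3 called members have exons that overlap an exon of another gene. Among the 124 tested members without such overlap DESeq2 called 0, edgeR called 0, and 35 had an unadjusted p under 0.05. The number called was 1 without shCtrl replicate 2 and 1 without shPCBP1 replicate 1. The number at an adjusted p under 0.05 was 23 without shCtrl replicate 1, 18 without shCtrl replicate 2 and 18 without shPCBP1 replicate 1.

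The lean was set beside genes of other classes. The median log2 fold change of other lncRNAs was -0.09, with 143 of 3211 higher and 276 lower at a DESeq2 adjusted p under 0.05. The antisense lncRNAs among them, named -AS, had a median of -0.08, with 25 of 553 higher and 38 lower. Coding genes that are no partner had a median of 0.02, with 2667 of 12318 higher and 1885 lower. These classes differ in count, and the median count of a tested divergent lncRNA was 172, beside 2708 for those coding genes.

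**Figure D1:**
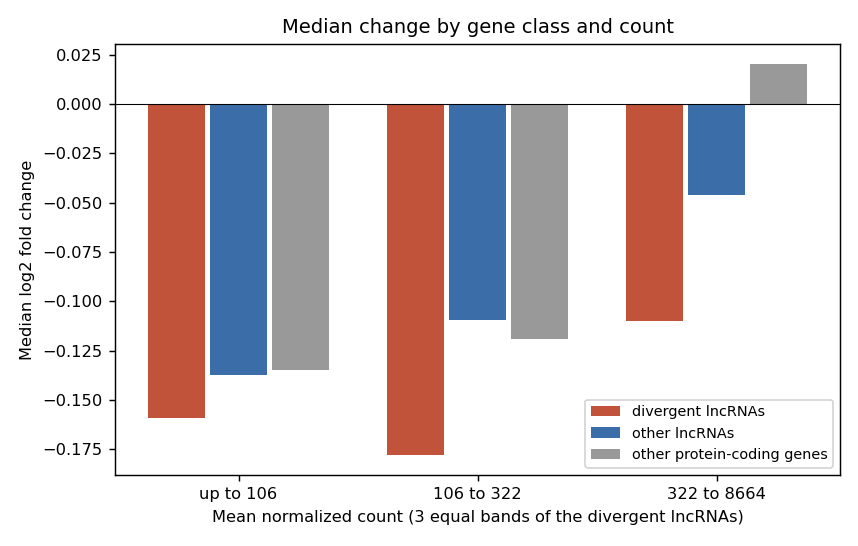
Median log2 fold change (shPCBP1 over shCtrl, vertical axis) of divergent lncRNAs, other lncRNAs and other protein-coding genes, within 3 equal bands of the divergent lncRNAs by mean normalized count (horizontal axis). In the lowest band the medians are -0.16, -0.14 and -0.13, and in the highest band they are -0.11, -0.05 and 0.02.

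Within 3 bands of 80 members each by mean normalized count, a comparison chosen after seeing the data, the classes lay closer together. Up to a mean of 106 counts, divergent lncRNAs had a median log2 fold change of -0.16, other lncRNAs -0.14 and coding genes -0.13. Between 106 and 322 counts the medians were -0.18, -0.11 and -0.12. In the highest band they were -0.11, -0.05 and 0.02. In both lower bands the median lay below 0 in every class. In the highest band 6 of 80 divergent lncRNAs rose and 15 fell, where 1620 of 7509 coding genes rose and 1354 fell. No test of the difference between classes was made.

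On the length-scaled level, the TPM summed over all members was 1091, 1107 and 1048 in shCtrl and 929, 972 and 995 in shPCBP1. Every shPCBP1 library lay below every shCtrl library. Other tested lncRNAs moved the same way, from 32312, 33165 and 32398 TPM to 30251, 30557 and 31063 TPM. The partners of the tested members summed to 12593, 12559 and 12483 TPM in shCtrl and to 12799, 12905 and 12729 TPM in shPCBP1, with each shPCBP1 library above. Transcripts of the retained intron type held 4.95% to 5.32% of the TPM in shCtrl and 4.94% to 5.10% in shPCBP1.

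**Figure D2:**
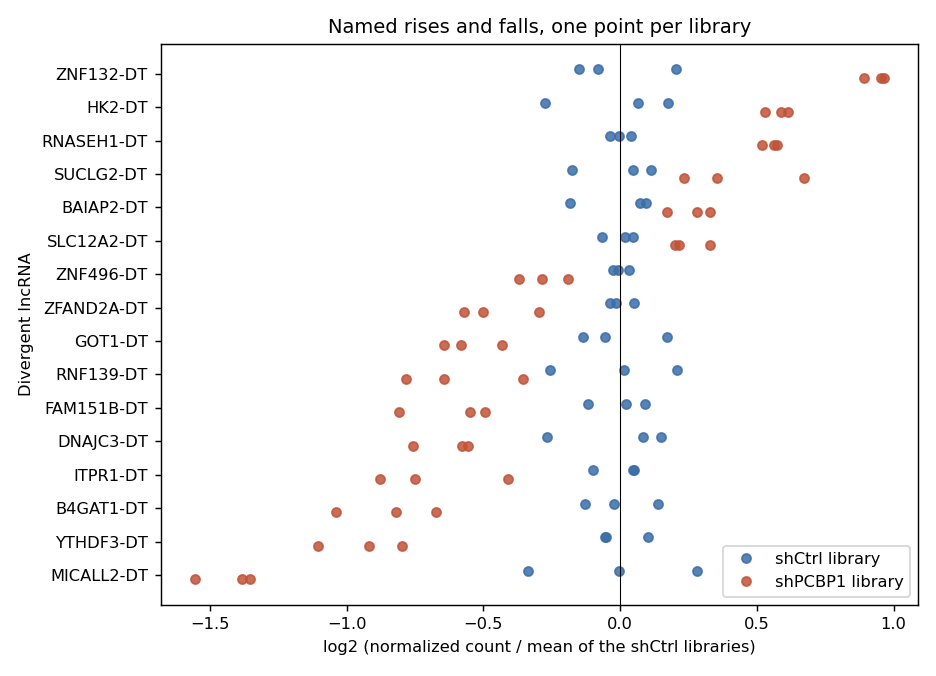
Normalized counts of the 16 divergent lncRNAs named as rises or falls, as log2 of the ratio to the mean of the shCtrl libraries (horizontal axis), with one point per library, blue for shCtrl and red for shPCBP1. The 6 rises stand at the top and the 10 falls below. They were chosen among members whose groups do not overlap. That no shPCBP1 point lies within the range of the shCtrl points of its gene follows from this choice.

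The named rises and falls were chosen among members whose groups do not overlap, so their separation is no further support. The rise of lowest p was ZNF132-DT, a single-exon transcript at chr19:58440448-58445849 on the plus strand whose exons touch no other gene. Its normalized counts were 426, 406 and 520.0 in shCtrl and 874, 836 and 880.2 in shPCBP1. The 3 shPCBP1 libraries lay close together and far above the highest shCtrl library. The fold change was 1.91, a log2 value of 0.93 (SE 0.13, DESeq2 adjusted p = 4.96e-12), and it passed in all 14 alternative fits. The partner ZNF132, a KRAB zinc finger factor, had 449, 498 and 517 counts in shCtrl and 780.2, 845 and 868 in shPCBP1. It rose by 0.77 on the log2 scale (SE 0.12, DESeq2 adjusted p = 1.67e-09). The difference within the pair was 0.16 with a 95% interval from -0.17 to 0.50, so lncRNA and mRNA were not told apart in their change.

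RNASEH1-DT, at chr2:3558419-3564842 on the plus strand, also shares no exon with another gene. It had 662, 684 and 647 normalized counts in shCtrl and 980.3, 952 and 990 in shPCBP1. The groups were separated by a wide gap, at a log2 fold change of 0.55 (adjusted p = 5.19e-07 by DESeq2, SE 0.10). Its partner RNASEH1 encodes ribonuclease H1, which degrades the RNA strand of RNA-DNA hybrids. That gene rose by 0.22 (SE 0.04, DESeq2 adjusted p = 3.01e-06), from 7717 to 8095 counts in shCtrl to 9041 to 9345 in shPCBP1. On counts the difference within the pair was 0.34 with a 95% interval from 0.12 to 0.55. With transcript length offsets it was 0.20 with an interval from -0.04 to 0.43, so a larger rise of the lncRNA did not hold under both.

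HK2-DT, with a single exon at chr2:74832655-74833987 on the minus strand, stands before the gene of hexokinase 2, which phosphorylates glucose at the entry to glycolysis. It had 295, 233 and 318 counts in shCtrl and 424, 431 and 407 in shPCBP1. All shPCBP1 libraries were above all shCtrl libraries, at a log2 fold change of 0.57 (adjusted p = 0.00285 by DESeq2, SE 0.16). HK2 rose by 0.30 (SE 0.06, DESeq2 adjusted p = 5.55e-06), from 7526 to 8615 counts to 9489 to 10817 counts. The difference within the pair had an interval from -0.07 to 0.62.

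The remaining 3 rises were smaller or less steady. SLC12A2-DT, beside the gene of the sodium-potassium-chloride cotransporter NKCC1, went from 1983 to 2148 counts to 2386 to 2608 counts. Its log2 fold change was 0.25 (DESeq2 adjusted p = 0.00187) next to 0.35 for SLC12A2 (adjusted p = 6.67e-07). The TPM of this lncRNA was 18.1 in shCtrl and 18.3 in shPCBP1, and its mean effective length was 1303 to 1405 bases in shCtrl and 1529 to 1599 in shPCBP1. With transcript length offsets the log2 fold change was 0.04 (adjusted p = 0.761), so the rise was one of counts and not of the length-scaled level. BAIAP2-DT, beside the gene of an adaptor of the actin cytoskeleton, rose by 0.26 (DESeq2 adjusted p = 0.0231) while BAIAP2 rose by 0.23 (adjusted p = 0.00415). SUCLG2-DT, beside a subunit gene of mitochondrial succinyl-CoA ligase, had a log2 fold change of 0.43 (DESeq2 adjusted p = 0.0351) with SUCLG2 at 0.00 (adjusted p = 0.987). BAIAP2-DT passed in 7 and SUCLG2-DT in 5 of the 14 alternative fits. BAIAP2-DT did not pass without shCtrl replicate 2 (adjusted p = 0.123), shPCBP1 replicate 2 (0.10) or shPCBP1 replicate 3 (0.112), and BAIAP2 did not without shPCBP1 replicate 1 (0.0529) or 2 (0.0637), all by DESeq2. SUCLG2-DT did not pass without shCtrl replicate 1 (adjusted p = 0.0761), shCtrl replicate 2 (0.142), shPCBP1 replicate 1 (0.245) or shPCBP1 replicate 3 (0.0552).

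The fall of lowest p and largest size was MICALL2-DT at chr7:1459912-1464707 on the plus strand. It had 148, 180.4 and 118 normalized counts in shCtrl and 50.6, 57.0 and 58.1 in shPCBP1. The shPCBP1 libraries were even, while the shCtrl libraries spread widely above them. The level was 37.2% of shCtrl, a log2 fold change of -1.43 (adjusted p = 2.61e-05 by DESeq2, SE 0.30) that passed in all 14 alternative fits. MICALL2, which encodes a Rab effector in the traffic of cell junction proteins, fell by 0.35 (SE 0.04, DESeq2 adjusted p = 5.60e-16), with 10615 to 10920 counts in shCtrl and 8379 to 8716 in shPCBP1. The lncRNA fell by more than its partner, with an interval of the difference from -1.68 to -0.48. An exon of MICALL2-DT overlaps an unnamed gene on the opposite strand, whose reads cannot be told apart from its own where strand was not kept.

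PGLS-DT and VPS33B-DT were the other called members, both of low count. PGLS-DT had 115, 167 and 112 counts in shCtrl and 52.8, 90.2 and 49.8 in shPCBP1. The groups did not overlap, at a log2 fold change of -1.02 (adjusted p = 0.00949 by DESeq2, SE 0.33), and PGLS, an enzyme gene of the pentose phosphate pathway, was at 0.10 (adjusted p = 0.222). PGLS-DT starts 240 bases inside its partner by the canonical transcripts and shares exon sequence with PGLS and SLC27A1. VPS33B-DT had 74.7, 113 and 54.5 counts in shCtrl and 29.2, 24.9 and 56.7 in shPCBP1, so that the groups overlapped. Its log2 fold change was -1.13 (SE 0.44, DESeq2 adjusted p = 0.0362) and that of VPS33B, a gene of vesicle fusion, was -0.09 (adjusted p = 0.590). PGLS-DT passed in 9 of the 14 alternative fits, and not without shCtrl replicate 2 (DESeq2 adjusted p = 0.0994), shPCBP1 replicate 1 (0.0622) or shPCBP1 replicate 3 (0.0544). VPS33B-DT passed in 5 and received no adjusted p in some, such as those without shCtrl replicate 1 or 2, and it did not pass without shPCBP1 replicate 1 (DESeq2 adjusted p = 0.146) or 2 (0.175).

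GOT1-DT fell together with its partner. It had 481, 596 and 508 counts in shCtrl and 338, 353 and 392 in shPCBP1. No library of one group reached the other, at a log2 fold change of -0.55 (adjusted p = 0.00118 by DESeq2, SE 0.15). GOT1, the cytosolic aspartate aminotransferase, had 8459, 8890.1 and 8041 counts in shCtrl and 4572, 4530 and 4680.4 in shPCBP1. It fell by 0.88 (SE 0.05, DESeq2 adjusted p = 9.92e-66). On counts the difference within the pair was 0.33 with a 95% interval from 0.03 to 0.64. With transcript length offsets GOT1-DT was at -0.92 (SE 0.20) and GOT1 at -0.86, with an interval of the difference from -0.46 to 0.34, so no order of the falls held under both. The mean effective length of GOT1-DT was 1953 to 2592 bases in shCtrl and 2663 to 2960 in shPCBP1.

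In 6 of the named falls the coding gene was tested and did not pass. ITPR1-DT had 316, 350.0 and 349 counts in shCtrl and 201, 184 and 255 in shPCBP1. Its log2 fold change was -0.67 (SE 0.18, DESeq2 adjusted p = 0.00177), and ITPR1, the calcium release channel opened by inositol trisphosphate, was at 0.02 (SE 0.06, adjusted p = 0.837). DNAJC3-DT, beside the gene of a co-chaperone of the endoplasmic reticulum, had 388, 518 and 496 counts in shCtrl and 277, 318 and 313 in shPCBP1. Its groups were apart, at -0.63 (SE 0.16, DESeq2 adjusted p = 8.56e-04), and DNAJC3 was at -0.03 (SE 0.06, adjusted p = 0.761). RNF139-DT, beside a ubiquitin ligase gene of the endoplasmic reticulum, had 796, 911 and 661 counts in shCtrl and 459, 616 and 505 in shPCBP1. It fell by 0.58 (SE 0.15, DESeq2 adjusted p = 5.58e-04) with RNF139 at 0.08 (SE 0.06, adjusted p = 0.329).

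YTHDF3-DT, a single-exon transcript of 741 bases, went from 123, 137 and 123 counts to 67.5, 59.3 and 73.3 counts. This put it at 52.3% of shCtrl and at a log2 fold change of -0.94 (adjusted p = 0.00577 by DESeq2, SE 0.29). YTHDF3, a reader of N6-methyladenosine, was at 0.13 (SE 0.06, adjusted p = 0.0584). With transcript length offsets YTHDF3 was at 0.17 and passed (DESeq2 adjusted p = 0.033). ZNF496-DT, the fall with the smallest standard error among the 10 of lowest p, had 2937, 3021 and 2896 counts in shCtrl and 2418, 2286 and 2582 in shPCBP1. It fell by 0.28 (SE 0.07, DESeq2 adjusted p = 1.55e-04), with the zinc finger gene ZNF496 at 0.09 (adjusted p = 0.0973). The 95% interval of the difference lay below 0 in each of these pairs, from -1.64 to -0.49 for YTHDF3 and from -0.52 to -0.22 for ZNF496.

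B4GAT1-DT and FAM151B-DT completed the named falls besides ZFAND2A-DT. B4GAT1-DT, beside the gene of a glucuronyltransferase that extends the sugar chain of dystroglycan, had 272, 226 and 243 counts in shCtrl and 120.3, 140.1 and 155 in shPCBP1. Its log2 fold change was -0.84 (SE 0.21, DESeq2 adjusted p = 5.79e-04), but -0.56 (adjusted p = 0.345) with transcript length offsets. FAM151B-DT had 388, 370 and 336 counts in shCtrl and 208, 249 and 259 in shPCBP1, at -0.61 (SE 0.17, DESeq2 adjusted p = 0.00218). FAM151B had at most 7.88 normalized counts in a library and received no adjusted p, so the lncRNA was the more abundant of this pair.

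**Figure D3:**
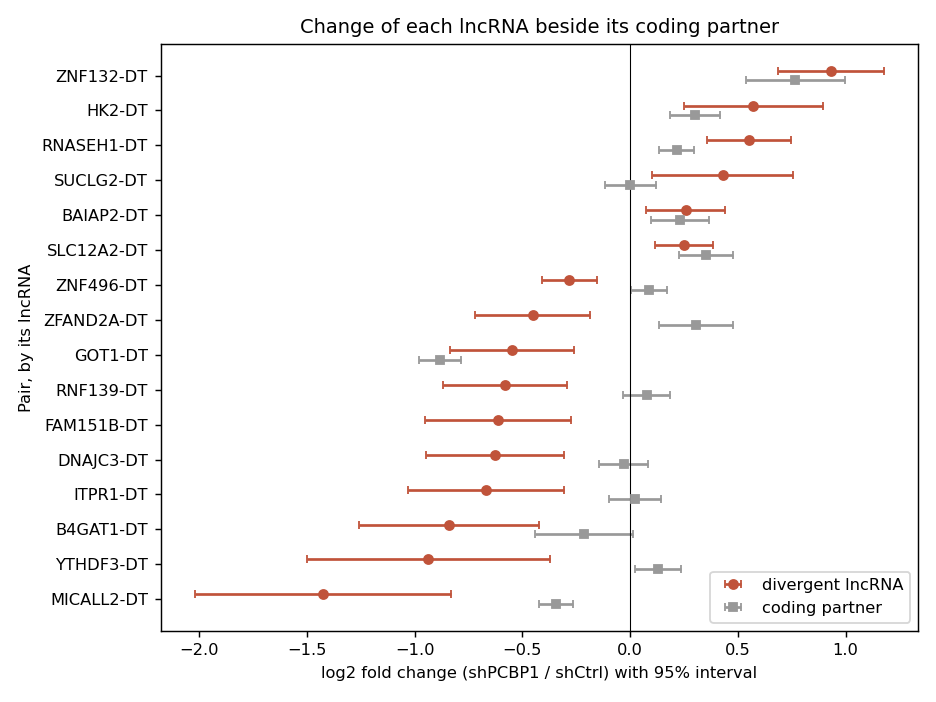
Log2 fold change (shPCBP1 over shCtrl, horizontal axis) of each named rise or fall (red circles) and of its coding partner (grey squares), with bars for the 95% interval of each estimate. FAM151B has no square because its count was too low for an adjusted p, and the partner square stands right of its lncRNA for the falls from ZNF496-DT down except GOT1-DT.

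Across 238 pairs with both genes tested, the estimated changes of lncRNA and partner were only loosely correlated. Pearson's r of the log2 fold changes was 0.21 and Spearman's rank correlation was 0.12, as a description over pairs that share libraries and size factors. Over the 52 pairs whose lncRNA had a mean count of at least 500, the rank correlation was 0.17. The standard errors of the tested lncRNAs had a median of 0.23, and their part in these low correlations was not tested. By sign alone, 98 pairs had a lower lncRNA and a higher partner, 71 had both lower, 43 had both higher and 26 had a higher lncRNA and a lower partner. The log2 fold change of the lncRNA minus that of the partner had a median of -0.19. Its 95% interval lay below 0 in 51 pairs and above 0 in 8, and these 59 became 38 without shPCBP1 replicate 1. The median count was 172 over the tested lncRNAs and 3747 over the tested partners. Coding genes that are no partner also had medians of -0.13 and -0.12 in both lower count bands. The part of count in the pair differences was not tested.

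**Figure D4:**
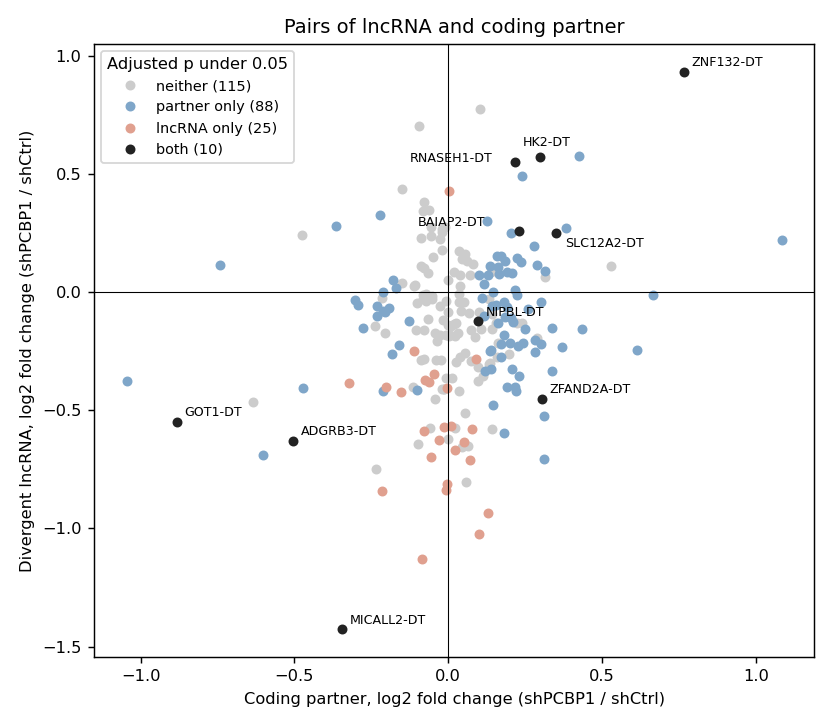
Log2 fold change of the coding partner (horizontal axis) against that of the divergent lncRNA (vertical axis) for 238 pairs, coloured by which gene had a DESeq2 adjusted p under 0.05. In 10 pairs both passed, and of these 5 stand in the upper right, 3 in the lower left and 2 in the lower right quadrant.

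Both genes passed the DESeq2 test in 10 pairs, the lncRNA alone in 25, the partner alone in 88 and neither in 115. In 5 pairs both rose, namely ZNF132, RNASEH1, HK2, SLC12A2 and BAIAP2 with their lncRNAs. In 3 pairs both fell, namely MICALL2, GOT1 and, named here to complete the count after its values were seen, ADGRB3. In the other 2 the lncRNA fell and the partner rose. ZFAND2A-DT fell from 538, 546 and 571 counts to 449, 389 and 371 counts, a log2 fold change of -0.45 (adjusted p = 0.00479 by DESeq2, SE 0.14). ZFAND2A, a stress-induced partner of the proteasome, rose by 0.30 (SE 0.09, DESeq2 adjusted p = 0.00291). Its counts were 1312, 1350 and 1380 in shCtrl and 1836, 1638 and 1513 in shPCBP1, so the groups stood apart in opposite directions. The exons of the pair overlap, and the difference was -0.76 with an interval from -1.07 to -0.44. The fall of ZFAND2A-DT did not pass with transcript length offsets or without the deepest and the shallowest library.

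NIPBL-DT, beside the gene of the cohesin loader, was the second opposite pair. It was the most counted divergent lncRNA, with 9056, 9362 and 8674 counts in shCtrl and 8285, 8031 and 8576 in shPCBP1. The gap between the groups was narrow, at -0.12 (SE 0.05, DESeq2 adjusted p = 0.0294). NIPBL had 17067 to 17863 counts in shCtrl and 17984 to 19297 in shPCBP1, at 0.10 (SE 0.04, DESeq2 adjusted p = 0.0407). NIPBL-DT passed in 8 and NIPBL in 3 of the 14 alternative fits. With transcript length offsets NIPBL-DT was at -0.06 (DESeq2 adjusted p = 0.51) and NIPBL at 0.05 (adjusted p = 0.413). NIPBL-DT had a DESeq2 adjusted p of 0.0953, 0.124, 0.0795 and 0.179 without shCtrl replicate 1, shCtrl replicate 2, shPCBP1 replicate 1 and shPCBP1 replicate 2. NIPBL had 0.175, 0.0667, 0.12 and 0.171 without shCtrl replicate 1, shCtrl replicate 3, shPCBP1 replicate 1 and shPCBP1 replicate 3. The number of opposite pairs was 1 without shCtrl replicate 1, without shCtrl replicate 2 or without shPCBP1 replicate 1, and 4 without shPCBP1 replicate 3.

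Of the 6 divergent lncRNAs of highest mean TPM, 5 are described, and their changes were small. RAB30-DT, beside the gene of a GTPase of the Golgi, averaged 34.8 TPM where RAB30 averaged 0.777 TPM. It had 1698, 2087 and 1877 counts in shCtrl and 1442, 1703 and 1615 in shPCBP1, overlapping by a few counts, at -0.25 (SE 0.09, DESeq2 adjusted p = 0.0262). It did not pass without shCtrl replicate 2 (adjusted p = 0.194), shCtrl replicate 3 (0.0803), shPCBP1 replicate 1 (0.185) or shPCBP1 replicate 3 (0.0574). Nor did it pass with transcript length offsets, at -0.225 (DESeq2 adjusted p = 0.196). Its TPM was 31.8, 42.6 and 38.8 in shCtrl and 26.9, 34.2 and 34.3 in shPCBP1, so the groups overlapped on that level too. RNF32-DT averaged 29.5 TPM, at a log2 fold change of 0.09 (DESeq2 adjusted p = 0.264). ZNF584-DT averaged 26.1 TPM and was at -0.04 (SE 0.05, DESeq2 adjusted p = 0.616), while the zinc finger gene ZNF584 rose by 0.30 (SE 0.06, adjusted p = 3.26e-06). The interval of the difference excluded 0 for this pair, from -0.50 to -0.19. TBC1D22A-DT averaged 23.0 TPM at -0.04 (DESeq2 adjusted p = 0.851), and NIPBL-DT averaged 22.6 TPM.

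Partners passed the test about as often as other coding genes. Of 499 partners tested, 137 rose and 57 fell at a DESeq2 adjusted p under 0.05, with a median log2 fold change of 0.05. That is 38.9% of the partners, beside 37.0% of other coding genes and 31.2% of all genes tested. Among partners 27.5% rose and 11.4% fell, where 21.7% of other coding genes rose and 15.3% fell, and this difference was not tested. The standard errors of the partners had a median of 0.06 where those of the lncRNAs had 0.23, so a change of a given size passed more easily in a partner. Past the fold threshold 4 partners were called. CFAP95, a gene of cilia, fell from 189, 125 and 184.5 counts to 64.1, 73.6 and 69.2 counts, at -1.27 (SE 0.28, DESeq2 adjusted p = 6.78e-05). MAP3K9, the kinase MLK1, had 69.6, 135 and 73.5 counts in shCtrl and 45.0, 39.2 and 49.8 in shPCBP1, at -1.05 (SE 0.39, DESeq2 adjusted p = 0.0248), and passed in 8 of the 14 alternative fits. It did not pass without shPCBP1 replicate 1 (DESeq2 adjusted p = 0.0669) or 2 (0.101), and received no adjusted p without shCtrl replicate 1, at -1.22, or without shCtrl replicate 2, at -0.68. DNAJA4, a co-chaperone of HSP70, rose from 24.2, 44.6 and 38.7 counts to 86.6, 127 and 87.2 counts, at 1.49 (SE 0.38, DESeq2 adjusted p = 5.15e-04).

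LHX1, a homeobox factor of early development, had 64.5, 38.0 and 46.0 counts in shCtrl and 94.4, 110.4 and 112 in shPCBP1, at 1.08 (SE 0.34, DESeq2 adjusted p = 0.00625). Without the deepest and the shallowest library, left out together after seeing the data, it had a log2 fold change of 0.99 and an adjusted p of 0.122. The groups of each of these 4 partners stood apart. Their lncRNAs gave little to set beside them. DNAJA4-DT was listed at 0 in every library, CFAP95-DT did not reach the count filter, MAP3K9-DT was at -0.38 (SE 0.45, DESeq2 adjusted p = 0.591) and LHX1-DT was at 0.22 (SE 0.37, adjusted p = 0.716). MAP3K9-DT and DNAJA4-DT share exon sequence with their partners.

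The pairs were grouped by what the partner does, from its name alone, and the counts stand beside 12.9% of all tested members lower, 17.7% of all genes higher and 13.5% of all genes lower. Of all partners tested, 27.5% rose and 11.4% fell. Beside genes of the secretory pathway and glycosylation, 6 of 26 tested lncRNAs fell, with a median log2 fold change of -0.29, while 7 partners rose and 1 fell. The 6 were B4GAT1-DT, DNAJC3-DT, RAB30-DT, VPS33B-DT and, named after their values were seen, WDR11-DT and EIF2AK3-DT, the last beside the gene of the stress kinase PERK. WDR11-DT was at -0.84 (SE 0.32, DESeq2 adjusted p = 0.0304) and EIF2AK3-DT at -0.57 (SE 0.22, adjusted p = 0.0314), both near the threshold. Among the 6, RAB30-DT passed in 8 and VPS33B-DT in 5 of the 14 alternative fits, and B4GAT1-DT did not pass with transcript length offsets. Beside zinc finger genes 1 of 11 lncRNAs rose and 3 fell. Beside other transcription and chromatin factors 1 of 22 lncRNAs fell, with a median of -0.13, while 13 of the 22 partners rose and the median partner was at 0.20. Beside transporters and channels 1 of 9 lncRNAs rose and 2 fell, while 6 of the 9 partners rose. Beside genes of RNA processing, export and translation 1 of 26 lncRNAs fell, while 12 partners rose and 2 fell. Every group of partner roles had a median below 0 for its lncRNAs, and no group was tested against the others.

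The counts were also taken by the arrangement of the pair, with no test between arrangements. Of 209 lncRNAs starting 0 to 1000 bases upstream of the partner 6 rose and 28 fell, with a median log2 fold change of -0.13. Of 17 that started farther upstream 2 fell, and of 14 that started past the partner start 1 fell. By the canonical transcript, of 58 with a single exon 2 rose and 5 fell, and of 182 with more exons 4 rose and 26 fell. The transcript of highest TPM can differ from the canonical one. It has 1 exon in ZNF496-DT, NIPBL-DT, ITPR1-DT, RNF139-DT, MICALL2-DT and PGLS-DT, which fell and are counted among the 182. Where an exon overlapped the partner, 7 of 68 fell and the median was -0.09, and where no exon overlapped any gene, 5 of 124 rose and 19 fell with a median of -0.17. Of the named lncRNAs, SLC12A2-DT shares exon sequence with CCDC192, B4GAT1-DT with SLC29A2, and FAM151B-DT with FAM151B and ZFYVE16. RAB30-DT shares exon sequence with COX5BP4 and LINC02951, RNF32-DT with RNF32, and ZNF496-DT and VPS33B-DT with unnamed genes. Of the named partners, BAIAP2 shares exon sequence with AATK, RNF139 with TATDN1, and RNF32 with LMBR1 and RNF32-AS1. RNASEH1, ITPR1, ZNF584, LHX1, VPS33B and DNAJA4 share it with unnamed genes, so the counts of these partners carry the same uncertainty.

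PCBP1 binds runs of C, so the base content of the canonical transcripts was read from the genome. The median share of C was 23.3% over the tested divergent lncRNAs, 22.7% over those that fell and 22.8% over those that rose, beside 23.9% over other lncRNAs and 23.8% over coding genes. Positions where CCCC starts were counted per 1000 bases, overlapping ones included, so a longer run of C counts more than once. Their medians were 3.73, 3.22 and 4.60 over the tested, lower and higher members, beside 4.35 over coding genes. The window of 60 bases richest in C is printed for the most changed fall and the most changed rise, with runs of at least 4 C in capitals. It spans bases 661 to 720 of the canonical MICALL2-DT transcript and bases 196 to 255 of the canonical ZNF132-DT transcript. The genes, at chr7:1459912-1464707 and chr19:58440448-58445849, both lie on the plus strand of GRCh38.
MICALL2-DT: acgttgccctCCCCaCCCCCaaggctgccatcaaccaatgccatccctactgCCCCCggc
ZNF132-DT: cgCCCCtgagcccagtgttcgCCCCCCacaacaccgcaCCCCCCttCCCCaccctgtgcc

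MICALL2-DT held 15.6 such CCCC positions per 1000 bases and ZNF132-DT held 5.74, above the medians of their directions. The MICALL2-DT values are those of its canonical transcript of 1222 bases. A single-exon transcript of 1658 bases had a higher mean TPM and was not read for base content. The windows were picked as the richest in C of each transcript, so their content is no finding, and over its whole length ZNF132-DT held 24.6% C. Binding was not measured in these libraries.

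Divergent transcripts are normally ended and removed by the cleavage and polyadenylation complex, Integrator, the cap-binding complex, the nuclear exosome and its adaptors. The list of 63 genes held these together with U1 snRNP, the elongation factors SUPT5H and SUPT6H, the Restrictor complex, SETD1A and the exonuclease XRN2. All 63 were tested, and 20 rose and 5 fell at a DESeq2 adjusted p under 0.05, beside 17.7% of all genes tested higher and 13.5% lower. Among coding genes that are no partner, a closer comparison, 21.7% rose and 15.3% fell. The median log2 fold change was 0.08. The changes were small. None was called past the fold threshold by DESeq2 or by edgeR, the largest DESeq2 value being 0.29, and 30 had an unadjusted p under 0.05. CPSF1, the scaffold subunit of poly(A) signal cleavage, fell by 0.25 (SE 0.03, DESeq2 adjusted p = 2.79e-11). WDR82 rose by 0.29 (SE 0.04, DESeq2 adjusted p = 9.20e-11) and ZC3H4 by 0.25 (SE 0.05, adjusted p = 1.44e-05), and together they form the Restrictor complex that stops noncoding transcription. SUPT5H, a subunit of the elongation factor DSIF, rose by 0.25 (adjusted p = 3.06e-08), CPSF7 of cleavage factor I rose by 0.23 (adjusted p = 2.50e-07) and ZC3H18, which ties the cap-binding complex to the exosome, rose by 0.24 (adjusted p = 1.07e-06), all by DESeq2. Whether these small changes bear on the divergent lncRNAs was not tested.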

How the data were processed

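Poly-A RNA of K562 cells was measured in 3 shCtrl and 3 shPCBP1 libraries, grouped by the sample labels. The authors quantified 252045 transcripts per library with Salmon 1.10.2 on hg38, and the deposited estimated counts were neither normalized nor whole. The deposited TPM values were scaled by the authors' software to effective transcript length and library size. The annotation of the index and whether strand was kept are not given in the sources used here. GENCODE release 44 matched 251142 transcripts, and the unmatched rest, left out, held 0.328% to 0.339% of the counts of a library. An estimated count spreads reads that fit several transcripts, so genes with overlapping exons are uncertain.

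Gene sums of the estimated counts were rounded to whole numbers. The 28843 genes whose sum over libraries reached 10 were fitted with DESeq2 1.42.0, with group as the only term. The Wald test and Benjamini-Hochberg adjustment follow the study's methods, and the rounding, filter and model term were chosen here. The lowest mean normalized count among genes with an adjusted p was 36.8. Called genes had an adjusted p under 0.05, a mean normalized count over 10 and a log2 fold change above 1 or below -1. Percents of shCtrl are ratios of mean normalized counts. Intervals of differences within a pair took both standard errors as independent. Every column of the files that was needed had a labelled sample. Counting precision follows depth, from 67066747 to 140522444 estimated counts per library, and standard errors cover the spread between libraries.

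The members, lists and tests were chosen with earlier results of these data known. Named genes were PCBP1, all called members and partners, up to 10 rises and 10 falls of lowest p whose mean normalized count reached 50 and whose groups do not overlap, the 6 members of highest TPM, opposite-direction pairs, the partner of each, and 6 genes of the termination list. One pair that this rule selects and 1 gene of the marker list are not reported here. Partner roles were assigned by name. Motifs, start intervals and base content were read from GRCh38 and from RefSeq promoters.

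Same-numbered libraries of the groups were checked for shared deviations over 21563 genes. The correlations were 0.01, 0.00 and -0.03, so the numbers do not pair the libraries. Alternatives were edgeR 4.0.16 (quasi-likelihood), TMM factors, transcript length offsets, other count filters, no independent filtering, a replicate block, members without exon overlap and each library left out. The fits were tested on simulated data. R 4.3.3, Python 3.11.15 and pandas 2.3.3 were used.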

Additional observations from a re-analysis of the deposited data

How the results depend on the processing

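The direction of the lean held in every fit run. The median log2 fold change of the tested divergent lncRNAs lay between -0.16 and -0.11, and 72.2% to 85.4% of the members at an adjusted p under 0.05 were lower. How many passed did change. Against 37 as reported, 22 (4 higher, 18 lower) passed with transcript length offsets and 24 (5 higher, 19 lower) when only lncRNAs without exon overlap were counted. Of the 22, 18 were among the 37. Leaving out each library in turn gave 18 to 33. Among called members, against 3, there were 0 without exon overlap, 5 without the deepest and the shallowest library together, a setting chosen after seeing the data, and 1 to 4 leaving out each library. Opposite-direction pairs, against 2, numbered 1 with edgeR, 1 with no independent filtering and 1 without exon overlap. Without the deepest and the shallowest library they numbered 4, and leaving out each library gave 1 to 4. With transcript length offsets they again numbered 2, but neither the ZFAND2A nor the NIPBL pair was among them. There YTHDF3-DT fell (DESeq2 adjusted p = 0.0072) while YTHDF3 rose (adjusted p = 0.033). Intervals of the pair difference that exclude 0, against 59, numbered 38 to 54 leaving out each library.

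The replicate block, fitted although the numbers do not pair the libraries, gave 21 members at an adjusted p under 0.05 (4 higher, 17 lower), all among the 37. It gave 1 opposite pair and 37 intervals that exclude 0, and 2 called members. No other main count moved by over 1.5 times under the block.

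Signs turned only for values that did not pass as reported. SUCLG2 was at -0.0126 with edgeR, at -0.0125 with TMM factors and at -0.0103 with a mean count over 50. Length offsets put RNF32-DT at -0.0358. Without the deepest and the shallowest library ITPR1 was at -0.0449, SUCLG2 at -0.0299 and LHX1-DT at -0.101. Leaving out each library put SUCLG2 between -0.0405 and 0.0392, ITPR1 between -0.0194 and 0.0681, RAB30 between -0.297 and 0.0355, DNAJC3 between -0.0491 and 0.00633, TBC1D22A-DT between -0.0913 and 0.00276 and TBC1D22A between -0.114 and 0.000491. The cause of these shifts was not tested. Of 423 comparisons of named genes under settings that keep all or 4 libraries, 377 kept direction and side of the threshold, 33 no longer passed, 2 newly passed, 7 turned and 4 received no adjusted p. The order of the changes within a pair was also read with length offsets, an alternative chosen after seeing the data. Depth limits the members: 205 in the fit received no adjusted p under DESeq2's independent filtering, and all 445 received one with edgeR or without that filtering.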

Other observations

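PCBP1 lies within PCBP1-AS1, an antisense lncRNA that is no member of the -DT set and spans it on the other strand. PCBP1-AS1 had 1532, 1695 and 1636 normalized counts in shCtrl and 1855, 1765 and 1675 in shPCBP1. The groups overlapped, with the log2 fold change at 0.12 (DESeq2 adjusted p = 0.242, SE 0.08), where PCBP1 itself was left at 18.1% of shCtrl. It was chosen after its values were seen.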
